A study of Mus musculus with 12 samples.

Results

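The transcription factors that divide the neural tube into dorsal and ventral progenitor domains were followed across Chd7 genotypes: Pax6, Irx3, Dbx1, Nkx6-1, Nkx6-2, Olig2, Nkx2-2 and Lmx1a. Every non-control probe whose accession paired with 1 of these 8 symbols was taken, which gave 10 probes for 8 genes out of 32496 genes or identifiers on the array. The design set out to find genes affected by loss of functional Chd7, a chromatin remodeller, when neural crest cells migrate. RNA was taken from whole E9.5 female mouse embryos of the whirligig line on a mixed C3HeB/FeJ background, bred from heterozygous parents and dissected out of the yolk sac. The groups were 4 homozygous (Chd7Whi/Whi), 4 heterozygous (Chd7Whi/+) and 4 wild-type (Chd7+/+) embryos, which the labels call biological replicates. Each RNA was labelled with Cy3 on 1 array. The labels do not state the litter of an embryo.

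In the neural tube, Sonic hedgehog from the notochord and floor plate acts against Bmp and Wnt signals from the roof plate, and the balance sets which homeodomain and basic helix-loop-helix factors a progenitor makes. Factors of neighbouring domains repress each other, which sharpens the borders, and each domain then gives rise to its own class of neuron. Several of these factors are also made elsewhere in the embryo, among them Pax6 in the eye and forebrain and Pax6, Nkx2-2 and Nkx6-1 in the pancreatic bud, so a whole-embryo level sums over tissues.

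On the chosen probe of each gene, the one with the highest mean signal, no difference between genotypes was called for any of the 8 factors. The second tested probe of Nkx2-2 was well above background on every array in wild type only, and is described apart, with that gene. It was tested only through wild type, where it was highest, so its p-value and separation are not independent of the filter on dim probes. In homozygous against wild-type embryos 0 of 8 passed an adjusted p of 0.05 (limma over all 22573 genes or identifiers tested, Benjamini-Hochberg), where 1.37% of all tested passed. At that share a count of 0 of 8 does not set these factors apart, and it does not show that they were unchanged. At an unadjusted p under 0.05 the count was again 0 of 8 chosen probes, against 16.9% of all tested, while the second Nkx2-2 probe had 0.00949 in limma. No chosen probe had homozygous arrays that lay wholly apart from the wild-type arrays, a separation seen for 14.1% of all tested, but the second Nkx2-2 probe did. In value 7 of 8 were lower in homozygous embryos, with a median log2 fold change of -0.20 against 0.013 over all tested, and the smallest adjusted p was 0.374. That tally depended on the setting: with array position as a block 3 were lower and 5 higher (median 0.045). The factors were measured in the same embryos and are not independent of each other.

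The 75th percentile of the signal, used to scale each array, lay between 1201 and 1746 on homozygous, 1115 and 1351 on heterozygous and 1382 and 1635 on wild-type arrays, and 70.0% to 76.4% of spots were well above background. Arrays of 1 genotype correlated at 0.986 to 0.995 with each other, and arrays of unlike genotype at 0.983 to 0.994. The scanner's median coefficient of variation over repeated spots was 4.41% to 7.48% on homozygous, 5.60% to 14.7% on heterozygous and 4.59% to 12.6% on wild-type arrays, with the 3 wild-type arrays at position 1 at 9.58%, 10.2% and 12.6%. Each of the 3 slides held all 3 genotypes, but position 1 on the slide held 3 of the 4 wild-type arrays and no other genotype. All 12 general neural progenitor genes listed (such as Sox2 and Nes) were well above background and tested. No probe carried an accession that the gene table pairs with Chd7, so the genotype labels were not checked on the array. Markers of other tissues varied between embryos. The mean of 5 heart muscle markers on heterozygous replicate 1 lay 5.03 log2 units under the wild-type mean, while the other 11 embryos lay between -0.33 and 0.51. The mean of 5 yolk sac and visceral endoderm markers spread over 3.34, 2.03, -1.76 and -0.88 on homozygous, 0.36, 0.99, 1.25 and 1.995 on heterozygous and -1.36, 1.86, 0.81 and -1.31 on wild-type arrays.

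All levels below are log2 signal relative to the 75th percentile of the same array, with replicates 1 to 4 in order, and replicate numbers only name the embryos. Signals of different probes are not on a common scale, so the factors are not ranked by level. Fold changes are differences of these log2 levels, and their 95% intervals come from the limma fit.

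Pax6, a paired-box factor of intermediate and dorsal progenitors, read -1.77, -1.61, -1.94 and -1.32 in homozygous, -1.47, -1.70, -1.18 and -1.04 in heterozygous and -1.36, -1.24, -1.49 and -1.37 in wild-type embryos. Homozygous replicates 1, 2 and 3 lay under every wild-type embryo, and replicate 4 lay among them. The log2 fold change of homozygous over wild type was -0.30 ± 0.16 (SE), with an interval of -0.65 to 0.06 (adjusted p = 0.374, limma). This was the smallest p among the 8 factors, and on the linear scale the interval runs from 0.638 to 1.04 times the wild-type level. In whole-embryo RNA, fewer cells making a factor and less of its RNA per cell cannot be told apart. A second Pax6 probe was well above background on 0 of 12 arrays and was not tested.

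Irx3, an Iroquois homeodomain factor of intermediate progenitors that opposes Olig2 at the border of the motor neuron domain in the chick, was the steadiest of the 8. It read 2.96, 2.75, 2.80 and 2.61 in homozygous, 2.86, 2.75, 2.54 and 2.72 in heterozygous and 2.83, 2.90, 2.82 and 2.68 in wild-type embryos. The groups overlapped almost wholly, and all 12 embryos lay within a 1.34-fold range. The log2 fold change of homozygous over wild type was -0.03 ± 0.10 (adjusted p = 0.912, limma). In this fit its interval of -0.25 to 0.19 runs from 0.840 to 1.14 times the wild-type level. With array position as a block the value was 0.06 ± 0.18, so the bound is less close there.

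Dbx1, which marks the progenitors of the most dorsal ventral interneurons, was the most variable of the 8. It read -1.51, -0.85, -0.05 and 0.66 in homozygous, 0.03, 0.35, -0.97 and -0.69 in heterozygous and 0.67, 0.03, -0.81 and 0.50 in wild-type embryos. Replicates of every genotype were spread widely, 2 homozygous embryos lay under every wild-type embryo, and the range over all 12 was 4.54-fold. The log2 fold change of homozygous over wild type was -0.54 ± 0.47, with an interval from -1.57 to 0.49 (adjusted p = 0.586, limma), so a 2-fold difference in value was within the error. Without homozygous replicate 1 the value was -0.18.

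Nkx6-1 and Nkx6-2 are related homeodomain repressors of ventral progenitors, with overlapping roles. Nkx6-1 read 0.55, 0.39, 0.59 and 0.64 in homozygous, 0.84, 0.57, 0.82 and 1.01 in heterozygous and 1.06, 0.42, 0.30 and 0.74 in wild-type embryos. All homozygous and heterozygous embryos lay inside the wild-type range. The log2 fold change of homozygous over wild type was -0.09 ± 0.16 (interval -0.43 to 0.26, adjusted p = 0.809, limma). Nkx6-2 read -3.13, -2.99, -2.22 and -2.14 in homozygous, -2.70, -2.24, -3.22 and -1.63 in heterozygous and -2.16, -2.41, -2.79 and -2.56 in wild-type embryos. The homozygous embryos fell into 2 low and 2 high ones on either side of most wild-type embryos, and the log2 fold change was -0.14 ± 0.32 (interval -0.85 to 0.57, adjusted p = 0.861, limma).

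Olig2, the basic helix-loop-helix factor that specifies motor neuron progenitors, read -2.77, -3.33, -2.98 and -1.90 in homozygous, -1.97, -1.71, -1.82 and -2.68 in heterozygous and -1.48, -2.58, -2.75 and -1.90 in wild-type embryos. Homozygous replicates 1, 2 and 3 lay under every wild-type embryo, while replicate 4 stood at the level of wild-type replicate 4. The log2 fold change of homozygous over wild type was -0.57 ± 0.35, with an interval from -1.33 to 0.19 (adjusted p = 0.422, limma). Leaving out 1 array gave -0.85 (without homozygous replicate 4) to -0.34 (without wild-type replicate 1), and array position as a block gave -0.13. Homozygous over heterozygous embryos gave -0.70 (interval -1.46 to 0.06, adjusted p = 0.850, limma).

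Nkx2-2, the homeodomain factor of the most ventral progenitors next to the floor plate, read -3.72, -3.32, -2.93 and -3.24 in homozygous, -3.27, -2.10, -3.20 and -2.79 in heterozygous and -3.04, -3.23, -3.58 and -3.47 in wild-type embryos. Homozygous and wild-type embryos overlapped throughout, and the log2 fold change was 0.03 ± 0.25 (interval -0.52 to 0.57, adjusted p = 0.967, limma). Heterozygous replicates 2 and 4 stood above every wild-type embryo. A second, dimmer probe for another Nkx2-2 transcript gave a different picture. It was well above background on 3 homozygous, 2 heterozygous and 4 wild-type arrays, and read -6.80, -7.35, -6.22 and -6.31 in homozygous, -6.01, -5.43, -6.49 and -6.75 in heterozygous and -5.10, -5.99, -6.15 and -5.13 in wild-type embryos. On this probe every homozygous embryo lay under every wild-type embryo, with homozygous replicate 2 and heterozygous replicates 3 and 4 not well above background. The probe was tested only because every wild-type array, the group with its highest mean, was well above background. Its separation and p-values are therefore not independent of that filter. Over all arrays the log2 fold change was -1.07, which did not pass with p-values adjusted over all probes (adjusted p = 0.173, unadjusted p = 0.00949, limma). The 2 probes correlated at only r = 0.281 over the 12 arrays, so the value for Nkx2-2 depended on the probe.

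Lmx1a, a LIM homeodomain factor of the roof plate, is the dorsal member of the set. It read -1.28, -0.86, -0.38 and -0.74 in homozygous, -0.61, -0.32, -0.97 and -0.72 in heterozygous and -0.59, -0.73, -0.41 and -0.49 in wild-type embryos. Homozygous replicates 1, 2 and 4 lay under every wild-type embryo, replicate 4 by less than the last digit given, and replicate 3 stood above all of them. The log2 fold change of homozygous over wild type was -0.26 ± 0.18 (interval -0.66 to 0.14, adjusted p = 0.495, limma). Leaving out 1 array gave -0.40 (without homozygous replicate 3) to -0.10 (without homozygous replicate 1), and the title number as a fixed block, in which homozygous replicates 1 and 4 add nothing, gave -0.06.

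**Figure D1:**
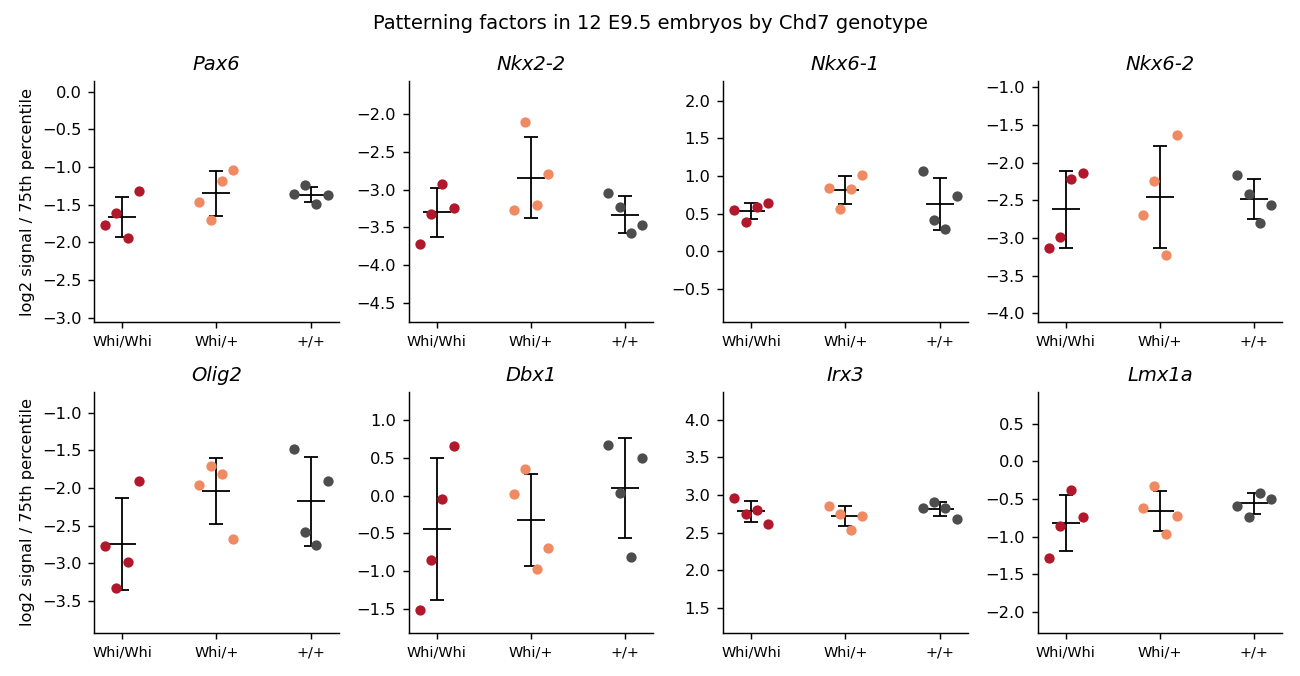
Level of each of the 8 patterning factors on its chosen probe in every embryo (points, log2 signal relative to the 75th percentile of the array) by genotype, with the mean and SD of 4 embryos as bars; every vertical axis spans the same number of log2 units. The genotypes overlap on all 8 probes shown, Irx3 is tight and Dbx1 is spread over a 4.54-fold range.

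How far a difference could be bounded varied between factors. In the fit without blocks, on the chosen probes, the 95% interval of homozygous over wild type held 0 for all 8 factors. It lay inside 1 log2 unit either way, a change of less than 2-fold, for 6 of them, the exceptions being Olig2 and Dbx1. For Nkx2-2 this holds for the chosen probe alone, since the second was at -1.07, a value not independent of the filter. These bounds do not carry over to the fit with array position as a block. There the SEs were larger, as for Nkx6-2 at 0.12 ± 0.63 and Nkx2-2 at 0.26 ± 0.465. The spread between embryos of a genotype, as a pooled SD, was 0.75 for Dbx1, 0.55 for Olig2, 0.51 for Nkx6-2 and 0.39 for Nkx2-2. It was 0.28 for Lmx1a, 0.24 for Pax6, 0.23 for Nkx6-1 and 0.13 for Irx3. Among all tested, Dbx1 stood at percentile 97.4 of this spread, Olig2 at 93.1 and Irx3 at 15.1.

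Heterozygous embryos gave no called factor either. Against wild type 0 of 8 passed the adjusted threshold (0.00886% of all tested did), 0 of 8 had an unadjusted p under 0.05 (15.3% of all tested), and no factor's arrays lay wholly apart (6.7% of all tested). In value 5 factors were higher and 3 lower in heterozygous embryos, and the smallest adjusted p, 0.361 in limma, belonged to Nkx2-2 at 0.49 (interval -0.06 to 1.03). Nkx2-2 was higher in heterozygous embryos on all 3 slides, by 0.36, 0.20 and 0.68. Each slide held few embryos of a genotype, and the share of all tested genes higher on all 3 was not counted. Heterozygous and wild-type arrays met at no array position, so agreement across slides cannot separate genotype from position. The log2 fold change of Nkx2-2 was 0.24 without heterozygous replicate 2. Without heterozygous replicate 1, the embryo low in heart markers, it was 0.63 (adjusted p = 0.340, limma). The second Nkx2-2 probe pointed the other way in this comparison, at -0.58.

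Homozygous against heterozygous embryos gave 0 of 8 called as well, with 0.0133% of all tested passing. The count at an unadjusted p under 0.05 was 0 of 8 (6.04% of all tested), and 0 of 8 had arrays wholly apart (2.99% of all tested). In value 7 of 8 were lower in homozygous embryos, with a median of -0.22, in a comparison where 59.8% of all tested were lower and their median was -0.03. Set against the midpoint of the other genotypes, heterozygous embryos gave 0 of 8 called, where 0% of all tested passed. In that comparison 1 factor, Nkx2-2, had an unadjusted p under 0.05 (7.81% of all tested), with a log2 difference of 0.47 and an interval of 0.002 to 0.95. Its limma adjusted p was 0.639. These comparisons share embryos and are not independent.

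**Figure D2:**
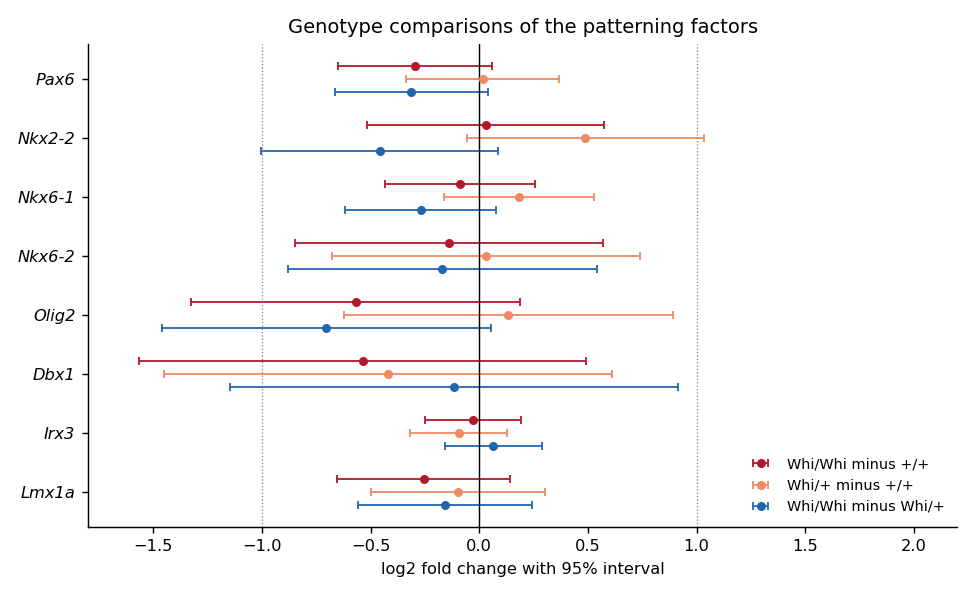
Log2 fold change of each factor (points) with its 95% interval (bars) for homozygous minus wild type, heterozygous minus wild type and homozygous minus heterozygous embryos; dotted lines mark 1 log2 unit. Every interval holds 0, and those of Olig2 and Dbx1 are the widest.

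Comparing only arrays of the same slide, 4 factors were lower in homozygous than in wild-type embryos on 3 of 3 slides. The share of all tested genes that did so was not counted. Of these genotypes, slide 1 held homozygous replicate 1 and wild-type replicate 1. Slide 2 held homozygous replicate 2 and wild-type replicates 2 and 3. On slide 3 were homozygous replicates 3 and 4 and wild-type replicate 4, so 1 embryo can set the value of a slide. Dbx1 differed by -2.18, -0.46 and -0.20, Olig2 by -1.30, -0.66 and -0.54, Lmx1a by -0.69, -0.29 and -0.06, and Pax6 by -0.41, -0.24 and -0.26. Irx3 kept close to 0 on every slide, at 0.13, -0.11 and 0.02. With array position as a block the values were 0.03 for Dbx1, -0.13 for Olig2, -0.41 for Lmx1a and -0.36 for Pax6. Homozygous and wild-type arrays met at 1 position only, so at the other positions genotype and position cannot be told apart.

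Levels of other tissues' markers varied with those of some factors. Across the 12 arrays, the mean over the 8 factors had Pearson's r of 0.88 with the embryonic blood markers, 0.77 with telencephalon, -0.61 with yolk sac, 0.50 with somite and muscle, 0.30 with eye and lens, 0.24 with pancreatic bud and -0.23 with heart muscle. Without the 2 embryos farthest from the median of each list, r was 0.87 for blood, 0.50 for telencephalon and -0.56 for yolk sac. It was 0.32 for somite and muscle, 0.26 for eye and lens, 0.60 for pancreatic bud and -0.72 for heart muscle. For heart muscle, where heterozygous replicate 1 was among those left out, Spearman's rho over all 12 arrays was -0.78. These are descriptions over arrays that share embryos and scaling. Homozygous replicates 1 and 2 had the lowest factor means, at -0.54 and -0.43 relative to the wild-type mean, the highest yolk sac levels and blood marker levels of -0.85 and -1.13. The other homozygous embryos had factor means of -0.09 and 0.12, against 0.29, -0.06, -0.29 and 0.06 in wild type, where replicate 3 also had a low blood level of -1.13. Each factor was then set against each of 7 marker lists, 56 relations in all, after the marker levels had been seen. Dbx1 with the telencephalon markers was the only relation under an adjusted 0.05 by Pearson's r (r = 0.86, permutation p = 0.00023, adjusted 0.0129), and r was 0.74 without the 2 embryos farthest from the median. By Spearman's rho none was (rho = 0.82 for that pair, permutation p = 0.0018, adjusted 0.101). Dbx1 had r = 0.79 with blood and -0.78 with yolk sac markers (adjusted permutation p = 0.0719 for each), and 0.83 and -0.77 without the 2 farthest embryos of each list. Olig2 had r = -0.44 with yolk sac markers, and -0.70 without the 2 farthest. Pax6 and Irx3 had r of 0.09 and 0.28 with yolk sac markers. With the yolk sac marker level as a covariate, the log2 fold change of Dbx1 in homozygous over wild type was -0.30 in place of -0.54 (adjusted p = 0.673, limma), and 0 of 8 were called. The part of these tissues in the factor levels was not tested.

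**Figure D3:**
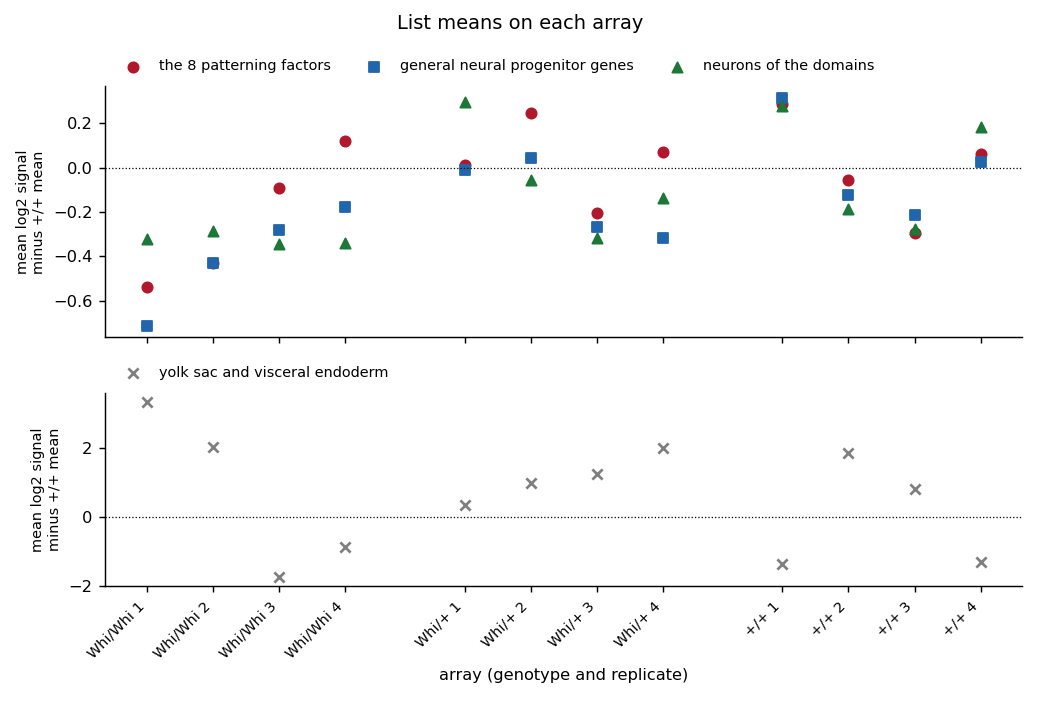
Mean log2 signal of the 8 patterning factors, of 12 general neural progenitor genes and of 16 genes of neurons born from the domains (upper panel) and of 5 yolk sac and visceral endoderm markers (lower panel) on each array, minus the wild-type mean. Homozygous replicates 1 and 2 are lowest for the patterning factors and highest for the yolk sac markers.

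Between each other, the factors correlated at Pearson's r from -0.44 (Pax6 with Irx3) to 0.64 (Dbx1 with Lmx1a) over the 12 arrays, which share their scaling and embryos. Olig2 with Dbx1 followed at 0.63 and Nkx2-2 with Nkx6-2 at 0.59. The 5 named genes most like Pax6 over the 12 arrays, out of 15021 compared, were St6galnac5 (r = 0.856), AW011738 (0.840), Mis12 (0.827), Sfrp4 (0.818) and Usb1 (0.803). Those most like Nkx2-2, the factor with the largest p, were Slc6a20a (r = 0.867), Gm4871 (0.841), Aadacl4fm4 (0.838), Otulinl (0.830) and Slc25a18 (0.826). None of these 10 is on any gene list used here.

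The neighbouring genes of the pathway mostly gave values within error too, with a few called. Of 7 floor plate and Hedgehog source genes 0 rose and 0 fell in homozygous embryos (median -0.03). Shh itself, the ventral signal, had -0.25 ± 0.23 (adjusted p = 0.600, limma), and the smallest p-values were those of Spon1 at 0.61 and Foxa1 at -0.34, neither called. Of 10 genes of Hedgehog reception and response, 1 fell and 0 rose (median -0.08). That gene was Hhip, a membrane inhibitor that binds Hedgehog ligands, at -2.07 ± 0.13 in homozygous, -1.76 ± 0.17 in heterozygous and -1.32 ± 0.32 in wild-type embryos (SD, n = 4 each). Its log2 fold change was -0.75 ± 0.15 (adjusted p = 0.0346, limma). The call was lost without any 1 homozygous embryo or without wild-type replicate 1, 3 or 4, with adjusted p-values of 0.0572 to 0.115.

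Of 7 other ventral and intermediate progenitor factors none was called (median -0.40), with Sp8 at -0.56 and Prdm8 at -1.50 having the smallest p-values (adjusted p = 0.110 and 0.113, limma). Of the 15 dorsal progenitor and roof plate factors 12 were tested, 0 rose and 1 fell (median -0.15). Olig3, a basic helix-loop-helix factor of dorsal progenitors, had -2.08 ± 0.57 in homozygous, -0.92 ± 0.16 in heterozygous and -0.31 ± 0.32 in wild-type embryos (SD, n = 4 each). Its log2 fold change was -1.77 ± 0.25 (adjusted p = 0.0052, limma), and the call held without each embryo in turn. It was lost with array position as a block, at -1.90 ± 0.49 (adjusted p = 0.585), and with the title number as a fixed block, at -1.42 ± 0.20 (0.0687), where homozygous replicates 1 and 4 have a number of their own and so add nothing to the comparison. Olig3 was therefore called while Olig2 was not, and the difference between them was not tested. The other 5 Iroquois genes were all higher in value in homozygous embryos (median 0.24) with none called, as for Irx1 at 0.24 and Irx6 at 0.42.

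Of 12 general neural progenitor genes 0 were called, with 10 lower in value (median -0.37). Hes5, a Notch effector, had the smallest adjusted p of the list at 0.0822 with -0.74, and Pou3f2 had -1.02. Of 21 genes of the neurons born from the domains, 20 were on the array and 16 were tested, of which 3 fell and 0 rose (median -0.18). Pou4f1, a factor of dorsal interneurons and sensory neurons, differed by -0.86 ± 0.15 on the log2 scale (limma, adjusted p = 0.0163). Isl1, needed by motor and sensory neurons, had -0.80 ± 0.15 (adjusted p = 0.0290) and Lhx9, of dorsal interneurons, -0.97 ± 0.20 (adjusted p = 0.0357). Leaving out 1 embryo ended these calls in some cases, at adjusted p-values up to 0.0575 for Pou4f1 (without homozygous replicate 1 or 3, or wild-type replicate 1 or 4), 0.0981 for Isl1 (without homozygous replicate 2 or 3, or wild-type replicate 1, 2 or 4) and 0.104 for Lhx9 (without homozygous replicate 1, 2 or 3, or wild-type replicate 1, 2 or 3). Array position as a block and the title number as a fixed block ended these 3 calls and that of Hhip (limma adjusted p-values of 0.208 to 1), with log2 fold changes of -1.01 to -0.48, and testing with no filter on dim probes ended those of Hhip, Isl1 and Lhx9 (0.0604 to 0.0723). Lhx9 had -0.22 under normexp background correction (adjusted p = 0.296). In value, 6 of the 16 neuron genes were higher in homozygous embryos, so the list did not move one way.

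**Figure D4:**
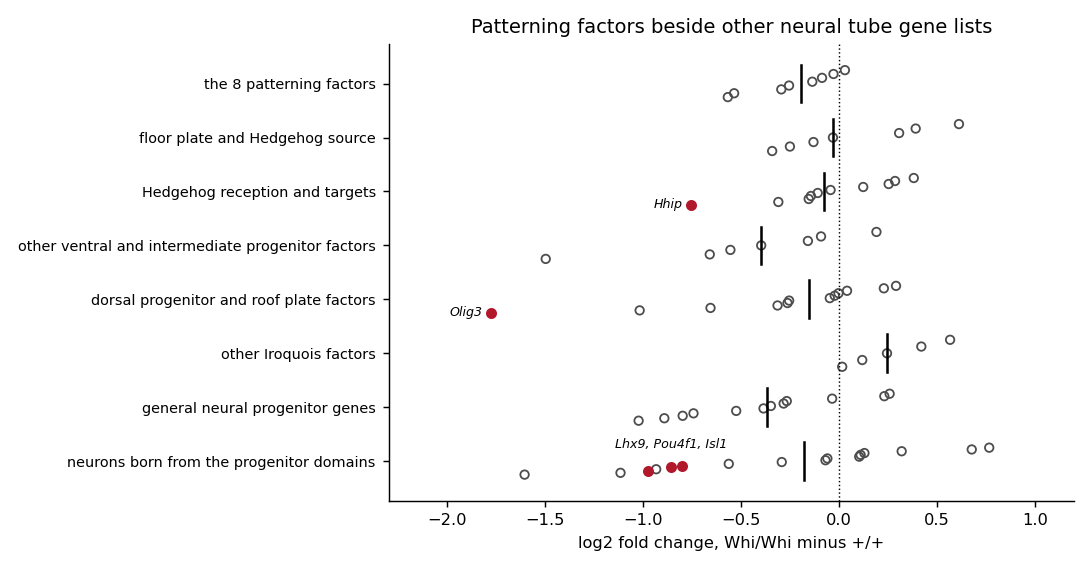
Log2 fold change of homozygous minus wild-type embryos for each tested gene of 8 neural tube lists (points) with the list median (black bar); filled points passed an adjusted p of 0.05. All 8 patterning factors are open points, while Hhip, Olig3, Lhx9, Pou4f1 and Isl1 are filled.

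Among tissues that could add to a factor's level, the 5 tested eye and lens markers had a median log2 fold change of 0.05 in homozygous embryos. That median covers unlike values, with 1 lower and 4 higher. Mitf was at -0.74 (adjusted p = 0.073, limma) and Six3 at 0.86 (adjusted p = 0.1475). The 3 tested pancreatic bud markers had a median of -0.03. Pdx1, Gcg and Onecut1 of that list were well above background on only 1, 0 and 2 of 12 arrays and were not tested. For the 4 telencephalon markers the median was -0.38, and 0 were called in each of these lists. Of 5 tested somite and muscle markers 1 fell, Myog, the muscle differentiation factor (adjusted p = 0.0017, limma). It was well above background on 2 homozygous, 3 heterozygous and 4 wild-type arrays, with a fitted log2 fold change of -3.49, or -1.36 under normexp background correction. Myog passed the filter only through the wild-type arrays, where it was highest, so its call is not independent of that filter. It was not tested when every array had to be well above background. The call was lost with position on the slide (-3.42, adjusted p = 0.291) or the title number (-3.36, 0.0793) as a fixed block. Heart muscle markers had a median of 0.24, embryonic blood -0.32 and yolk sac markers 0.81, with 0 called in each.

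RefSeq windows on GRCm38.p6, from 250 bases before to 50 bases after a transcript start, of the promoters were given for all 8 genes and numbered 9, as Pax6 has 2. Their median GC content was 59.3%, against 52.7% over 32851 promoters, with members from 46.3% (a Pax6 window) to 67.3% (Nkx6-1). Their median observed over expected CpG ratio was 0.79 against 0.38, from 0.46 for Lmx1a to 1.18 for Nkx6-1. The letters TATAAA, those of a TATA box, were found on either strand in 2 of 9 windows against 13.6% of all promoters. The homeodomain core TAATTA was in 0 of 9 (5.29% of all), the E-box CAGCTG in 0 of 9 (16.3%) and the Gli motif TGGGTGGTC in 0 of 9 (0.253%). No match overlapped another. Both windows with TATAAA belong to the factors with the widest spread between embryos, so these are printed with that of Irx3, the tightest, a choice made after the values were seen. Capitals mark TATAAA, which begins 8 bases before the start in Olig2 and 45 bases before it in Dbx1. The windows lie at chr16:91225300-91225599 on the plus strand for Olig2, chr7:49636786-49637085 on the minus strand for Dbx1 and chr8:91801605-91801904 on the minus strand for Irx3.
Olig2: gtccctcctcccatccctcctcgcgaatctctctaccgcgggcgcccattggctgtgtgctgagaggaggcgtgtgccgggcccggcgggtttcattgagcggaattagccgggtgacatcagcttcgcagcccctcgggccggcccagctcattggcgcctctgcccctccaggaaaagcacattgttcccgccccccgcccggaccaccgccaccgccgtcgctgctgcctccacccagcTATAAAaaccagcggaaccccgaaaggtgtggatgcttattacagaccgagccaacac
Dbx1: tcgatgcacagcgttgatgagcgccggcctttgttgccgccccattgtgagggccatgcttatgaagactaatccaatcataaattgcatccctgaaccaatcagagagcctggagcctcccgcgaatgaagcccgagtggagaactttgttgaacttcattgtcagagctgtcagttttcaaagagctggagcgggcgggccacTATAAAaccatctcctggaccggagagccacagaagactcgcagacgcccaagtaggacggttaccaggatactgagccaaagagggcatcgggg
Irx3: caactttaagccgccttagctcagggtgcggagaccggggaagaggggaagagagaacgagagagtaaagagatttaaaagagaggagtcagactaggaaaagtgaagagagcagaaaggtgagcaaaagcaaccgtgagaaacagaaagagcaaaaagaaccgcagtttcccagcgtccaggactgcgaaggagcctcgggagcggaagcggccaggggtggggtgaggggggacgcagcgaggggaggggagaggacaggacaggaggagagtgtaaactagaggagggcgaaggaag
Over all tested genes with a window, the median pooled SD was 0.24 for the 1282 with TATAAA and 0.19 for the 10837 without it, with no matching for signal level. This is a description of letters in a window and shows no binding, and a link between the letters and the spread was not tested.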

How the data were processed

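Signal intensities of 12 one-colour arrays were deposited by the authors as Agilent Feature Extraction 10.7.3.1 output, background-subtracted per the file headers (processed signal). The deposited value table held the same intensities, equal on every spot. For each array, log2 of the processed signal minus the 75th percentile over non-control spots was taken, control spots and outlier-flagged spots were left out, and spots of a probe were averaged. Probes were named by accession through a RefSeq table of GRCm38.p6 (26049 of 39429 probes); the array design is annotated on mm9, so no gene coordinates are given from it. A gene was represented by its probe of highest mean and tested when every array of 1 genotype or more detected it over background. limma 3.58.1 in R 4.3.3 was fitted over all 12 arrays, and the same fitting function was also run on simulated data. The number of arrays limits precision. The factors, lists and tests were chosen with earlier results of these data known. Named genes were the 8 factors, the called members of each list (at most 4, or the 2 smallest p-values where none passed) and the 5 genes most correlated with the factors of smallest and largest p. Alternatives changed background correction, scaling, filter, blocks, variance model and arrays.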

Additional observations from a re-analysis of the deposited data

How the results depend on the processing

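The replicate numbers follow only the order of the samples and match no embryos across genotypes. Matched fits used the slide, the array position or the title number as a block. None of the 8 factors was called in any of the 78 fits of 26 alternatives over 3 comparisons, 12 of which each leave out 1 array. None was called in 25 fits of the heterozygous minus midpoint comparison, where 0 of all genes were called in any fit. Heterozygous minus wild type called at most 5 of all genes in a fit, and homozygous minus heterozygous at most 9. In these comparisons a count of 0 factors says little about the factors. The yolk sac covariate was added after the data were seen, as were the fits of the midpoint comparison and of the called list genes. Of 624 log2 fold changes of factors in alternatives, 46 changed sign. None of the 46 was called and none exceeded 0.271 either way, and the cause was not tested. Settings that changed only the filter or the variance model kept the group means, as did leaving out an array of the genotype not compared. The sign could not change in these, so the 624 values do not all test it.

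In homozygous minus wild type, quantile normalization gave Nkx2-2 -0.022 and Irx3 0.045, slide as a block gave Nkx2-2 -0.029, and array position as a block gave Nkx6-1 0.271, Nkx6-2 0.121, Dbx1 0.031 and Irx3 0.059. The title number, a whole number in the labels of unstated meaning, gave Irx3 0.006 as a fixed block. Leaving out 1 array gave Nkx2-2 -0.096 to 0.167, Nkx6-1 -0.199 to 0.056, Nkx6-2 -0.298 to 0.032 and Irx3 -0.089 to 0.027.

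In heterozygous minus wild type, Pax6 was -0.011 with normexp, -0.012 with quantile normalization, -0.25 with array position, -0.017 with the title number and -0.005 with the yolk sac covariate. Nkx6-2 was -0.039 with quantile normalization, -0.045 with slide, -0.02 with the title number and -0.177 with array weights. Olig2 was -0.026 with slide, Irx3 0.095 with array position and Lmx1a 0.029 with the yolk sac covariate. Leaving out 1 array gave Pax6 -0.086 to 0.135, Nkx6-2 -0.241 to 0.290, Olig2 -0.057 to 0.367 and Lmx1a -0.209 to 0.005.

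In homozygous minus heterozygous, Dbx1 was 0.225 with array position, 0.041 with the title number and 0.093 with array weights, Irx3 -0.036 with array position, Lmx1a 0.033 with the title number and Nkx6-2 0.169 with array weights. Leaving out 1 array gave Nkx6-2 -0.428 to 0.103 and Dbx1 -0.483 to 0.241.

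The number of all genes called in homozygous minus wild type was 309, and 186 with no filter on dim probes, 19 with array position, 17 with the title number as a fixed block and 516 with array weights. Without 1 array it was lowest at 114 and 116 (wild-type replicates 1 and 4) and 152, 139 and 142 without homozygous replicates 1, 2 and 3. Counts ranged from 0 to 5 in heterozygous minus wild type, against 2, and from 0 to 9 in homozygous minus heterozygous, against 3. Of the called list genes, Olig3 stayed called in 24 of 26 alternatives, Pou4f1 in 20, Isl1 in 18, Hhip in 15, Lhx9 in 14 and Myog in 23 of 25. Only 1 probe each stands behind most factors. In homozygous minus wild type, 4 embryos a genotype leave Olig2 and Dbx1 open to differences of over 2-fold on the chosen probes without blocks. With array position as a block, Nkx6-2 (0.12 ± 0.63, SE) and Nkx2-2 (0.26 ± 0.465) were less closely bounded too. In heterozygous minus wild type the intervals reach 1.03 for Nkx2-2 and -1.45 for Dbx1. In homozygous minus heterozygous they reach -1.46 for Olig2, -1.15 for Dbx1 and -1.0035 for Nkx2-2.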
